A study of Homo sapiens with 23 samples.

Results

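The epidermal differentiation complex is a cluster of genes on human chromosome 1 that encodes much of the outer layer of stratified epithelium. The genes analysed here were those whose symbol is SPRR, LCE or S100A followed by a number, together with IVL, FLG, TCHH, CRNN and TGM1, where the annotation of the array assigns a probe set to that gene alone. This rule found 32 genes with 40 probe sets, out of 19775 genes with a probe set of their own and 54675 probe sets on the array. Of the 32 genes, 31 lie on chromosome 1. TGM1 lies on chromosome 14 and is included for what its enzyme does, not for its place. RefSeq lists 53 genes with symbols that fit the rule, and 21 of them have no probe set of their own on this array.

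In a terminally differentiating keratinocyte, involucrin (IVL), the small proline-rich proteins (SPRR) and the late cornified envelope proteins (LCE) are laid down under the plasma membrane and cross-linked into an insoluble envelope. Transglutaminase 1, the product of TGM1, is the enzyme that makes many of these cross-links. Filaggrin (FLG), trichohyalin (TCHH) and cornulin (CRNN) join an S100 domain to long repeats and are called fused-type S100 proteins. The S100A genes encode small calcium-binding proteins that bind annexins, cytoskeletal proteins and receptors. S100A8 and S100A9 pair to form calprotectin, which is abundant in neutrophils and is also made by epithelial cells under stress or inflammation.

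RNA was measured in MCF-10A-ER-Src cells, a non-transformed human mammary epithelial line that carries a fusion protein of viral Src and the hormone-binding region of the estrogen receptor. Tamoxifen (TAM, given at 1 µM as 4-hydroxytamoxifen) switches this Src on, and ethanol (EtOH) is its vehicle. All groups carried this fusion and all had been transfected for 48 h with an siRNA pool at 25 nM, either a non-targeting one (siNEG, also named siSCM by the study) or one against the transcription factor STAT3 (siSTAT3). The 8 groups were siNEG or siSTAT3 cells with EtOH or TAM for 4 or 24 h, with 3 arrays each except siSTAT3 cells with TAM for 24 h, which had 2, numbered 2 and 3, in the data used. Biological replicates are named in the study's methods, while the labels do not give whether arrays came from separate cultures, so p-values measure the spread between these samples, which may be technical. In bulk RNA, fewer cells that express a gene and less RNA per cell cannot be told apart.

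Values are array signals on a linear scale in arbitrary units, and differences are on the log2 scale with their standard error (SE). A gene is said to rise, fall, be higher or be lower where the limma test gave an adjusted p under 0.05 after the Benjamini-Hochberg correction over all 54675 probe sets. A probe set's brightness depends on its sequence, so levels of different genes were not compared. No detection calls came with the signals. Where a group's mean was under 100 units, a level that may not stand above background, a log2 difference against it is the fitted value and no fold size is given. The median signal of an array was 73.5 to 85.3 units, and on each array between 44.6% and 46.9% of the probe sets exceeded 100 units. STAT3 itself had group means of 4022 to 6119 units in siNEG cells and 331 to 425 units in siSTAT3 cells, 10.5- to 15.3-fold lower. The basal markers KRT5, KRT14, LAMB3 and ITGB4 and the epithelial markers CDH1, EPCAM, KRT8 and KRT18 were above 100 units in every group, while the melanocyte markers MLANA, PMEL and TYR were below it in all.

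Of the 32 genes, 23 (71.9%) had a mean of at least 100 units in 1 or more groups, against 58.9% of all 19775 genes. The 9 that stayed below 100 units in every group were IVL, all 3 fused-type S100 genes (FLG, TCHH and CRNN), LCE2B, SPRR2C, SPRR2G, S100A1 and S100A5, with group means between 6.75 and 87.4 units. Thus 14 of 16 S100A genes, 5 of 7 SPRR genes, 3 of 4 LCE genes and TGM1 reached that level. SPRR2C is listed by RefSeq as a transcribed pseudogene.

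**Figure D1:**
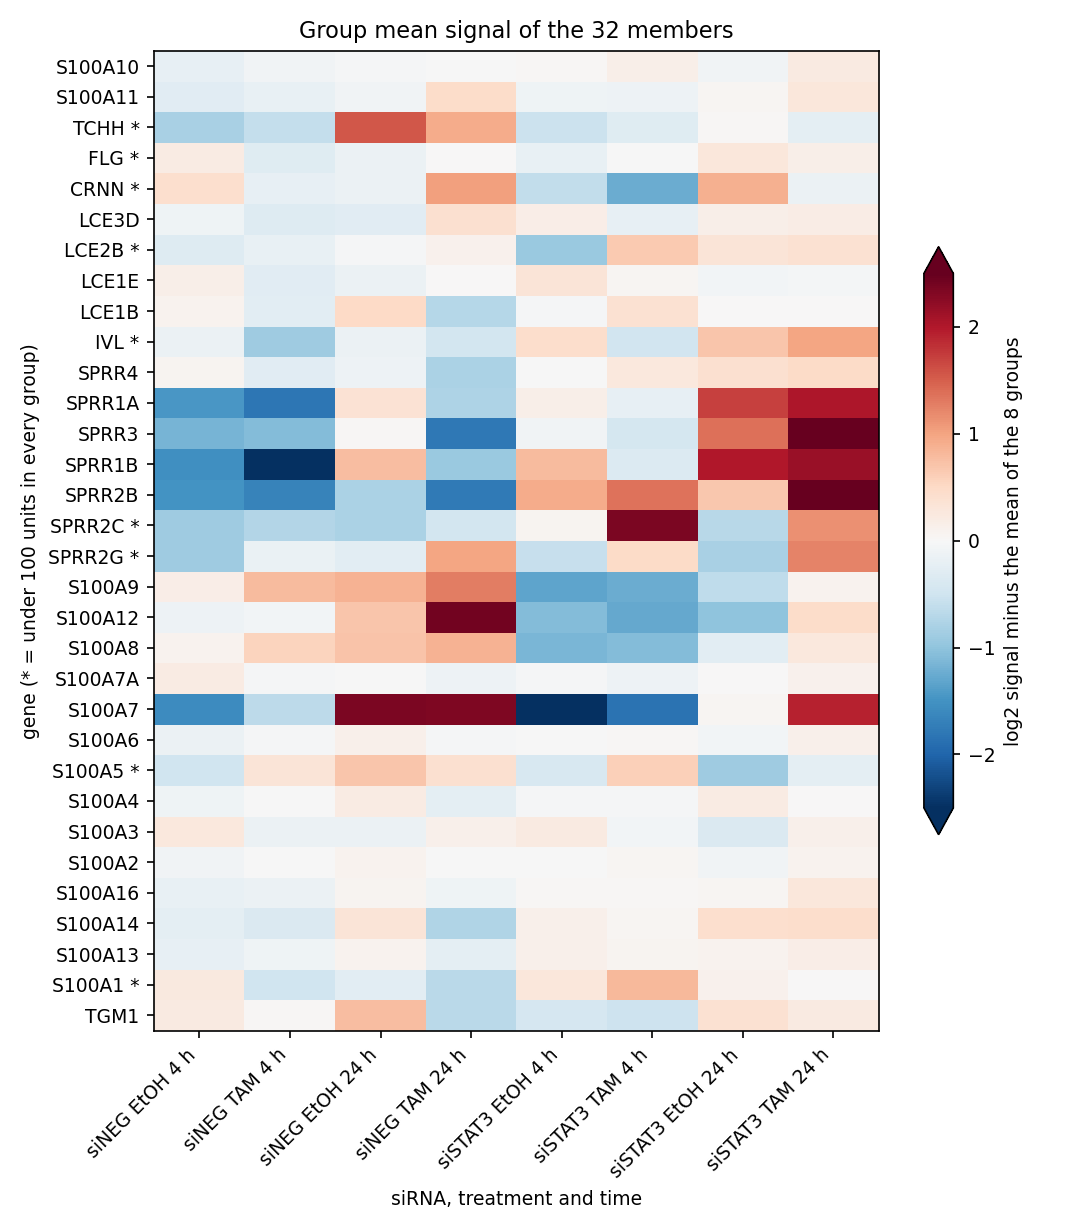
Group means of log2 signal for the 32 genes, each minus its own mean over the 8 groups, with genes in their order along chromosome 1 and TGM1 last; columns are the 8 groups and colour runs from blue (lower) to red (higher). The SPRR1A, SPRR1B and SPRR3 rows are darkest red in siSTAT3 cells at 24 h, the S100A8 and S100A9 rows are blue in most siSTAT3 groups, and genes with an asterisk were below 100 units in every group.

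Tested in 11 comparisons, 14 of the 32 genes were called at least once and 18 never, of which 10 had reached 100 units. With TAM for 24 h in siNEG cells, 2 members rose and 8 fell, where 6.06% of all genes rose and 9.31% fell, and the median log2 difference was -0.14 over the members and -0.04 over all genes. The genes that fell were SPRR1A, SPRR1B, SPRR2B, SPRR3, LCE1B, TGM1, S100A14 and S100A4, and those that rose were S100A9 and S100A11. With the stricter limits of the study, an unadjusted p under 1e-04 and an absolute log2 difference over 0.5, 4 of these 10 members were called in siNEG cells (6.11% of all genes). In siSTAT3 cells the same treatment raised SPRR2B and S100A9 and lowered none, where 2% of all genes rose and 0.748% fell. Without TAM replicate 3 of siSTAT3 cells this count was 1. After 4 h, TAM raised S100A9 and lowered SPRR1B in siNEG cells (1.67% and 1.58% of all genes) and in siSTAT3 cells it raised no member and lowered SPRR1B (0.531% and 0.288%).

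Against siNEG cells under the same treatment, siSTAT3 cells had 4 members higher and 3 lower in EtOH at 4 h (1.88% and 2.41% of all genes), 3 higher and 2 lower in EtOH at 24 h (1.4% and 1.46%), 4 higher and 2 lower in TAM at 4 h (4.69% and 4.61%), and 7 higher and 2 lower in TAM at 24 h (9.72% and 6.77%). SPRR1A, SPRR1B and SPRR2B were higher and S100A8 and S100A9 lower in all 4, whereas 270 genes (1.37% of all) were called in one direction in all 4. For SPRR1A and S100A8 this holds for the main probe sets. In EtOH at 24 h their second probe sets were not called (adjusted p = 0.499 and 0.655). That of S100A8 was higher in siSTAT3 cells in TAM at 24 h (2.19, adjusted p = 0.000226). Each of these comparisons shares arrays with the TAM comparisons above. The siNEG TAM arrays are the treated group there and the reference here, so that their error enters both with opposite signs. The 12 cornified envelope precursors (IVL, SPRR and LCE) had 5 called higher in TAM at 24 h, with a median log2 difference of 1.36 over the 12, and 3 called higher in each of the other 3 conditions, with medians of 0.45 (EtOH, 4 h), 0.48 (EtOH, 24 h) and 0.64 (TAM, 4 h). Over all 32 members the medians were 0.12 and 0.01 in EtOH at 4 and 24 h and 0.25 and 0.24 in TAM at 4 and 24 h, and over all genes -0.04, 0.01, 0.01 and 0.03.

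**Figure D2:**
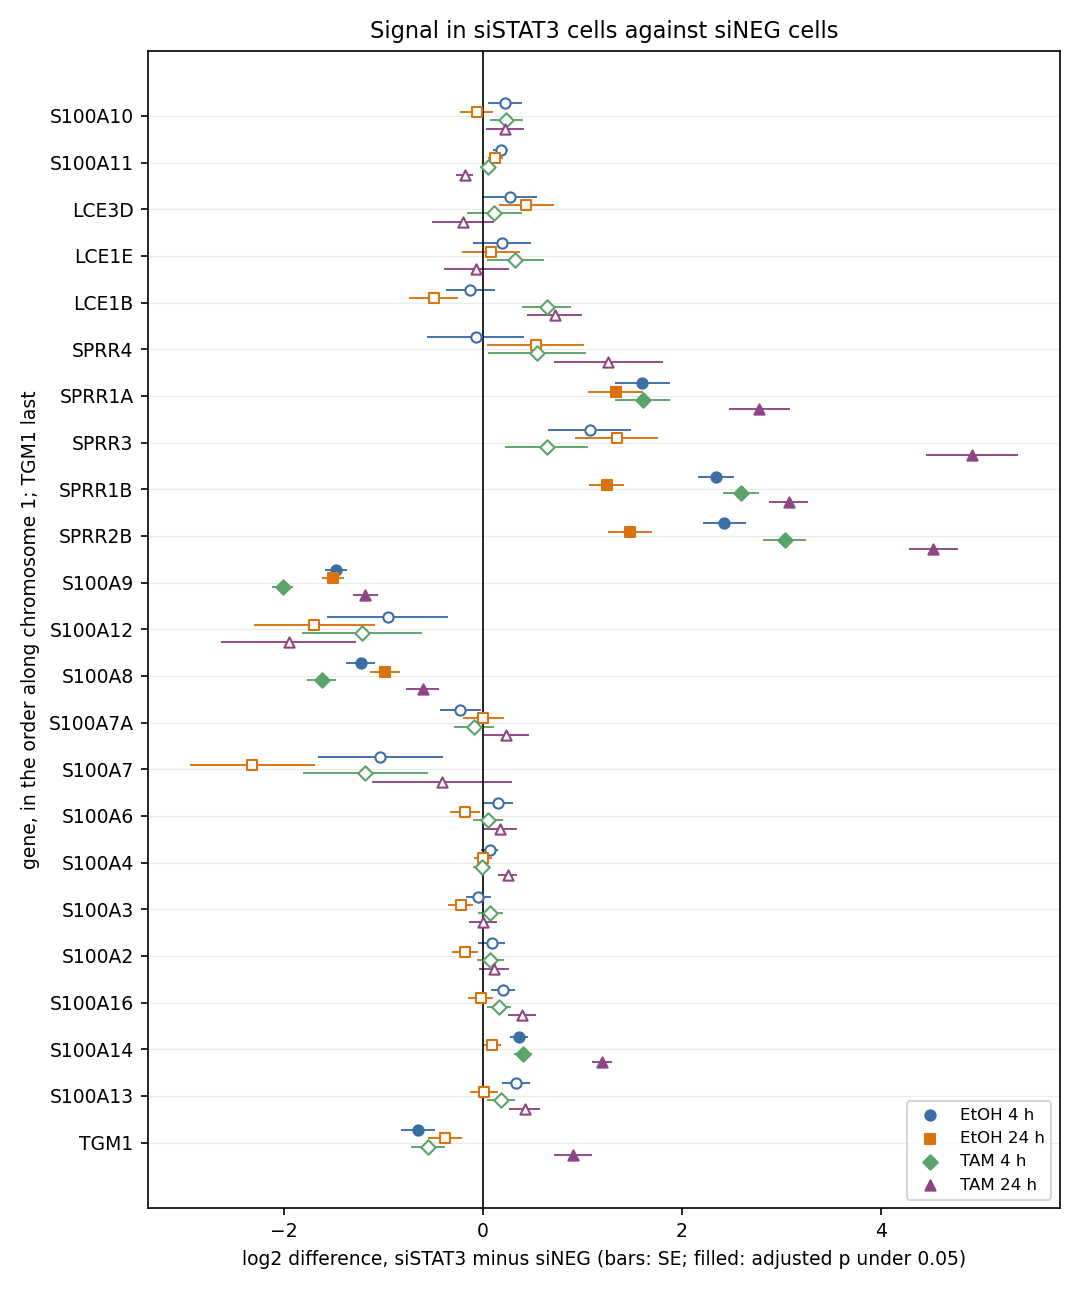
Log2 difference between siSTAT3 and siNEG cells under the same treatment for the 23 genes that reached 100 units, in chromosome order with TGM1 last; bars are standard errors and filled points have an adjusted p under 0.05. SPRR1A, SPRR1B and SPRR2B lie to the right of 0 and S100A8 and S100A9 to the left in all 4 conditions. SPRR3 with TAM for 24 h, at 4.92, is set against a siNEG mean of 51.7 units, and SPRR1A with TAM for 4 h, at 1.61, against one of 80.6 units.

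Promoter sites are printed for SPRR1A, SPRR1B, SPRR3 and IVL, each called in 1 or more comparisons. The sites of S100A3, also called in 1, and of S100A2 and S100A5, which had no call, are named below but not printed. SPRR2C, SPRR2G and SPRR4 had no call. RefSeq promoter sequences (GRCh38.p14, 250 bases before to 50 after the gene start) were listed for 29 of the 32 genes, not for LCE1B, SPRR2C and TGM1. They were searched on both strands for TGACTCA, the core site of AP-1 factors such as FOS and JUN, and for TTCNNNGAA, the site of STAT factors. An AP-1 site was found for 6 of the 29, where 4.95% of all 35116 listed promoters hold one, and these were SPRR1A, SPRR1B, SPRR3, IVL, S100A2 and S100A3. The lines give these SPRR and IVL sites on the gene's own strand, with the motif in capitals.
SPRR1A, starting 108 bases before the gene start (chr1:152983965-152983987, plus strand): tggtagtgTGAGTCAtgtgtgac
SPRR1B, starting 141 bases before the gene start (chr1:153031054-153031076, plus strand): acaaaagtTGAGTCAacaggtgg
SPRR3, starting 170 bases before the gene start (chr1:153001571-153001593, plus strand): gtggacagTGAGTCAggcccagg
IVL, starting 123 bases before the gene start (chr1:152908415-152908437, plus strand): gcctgtggTGAGTCAggaagggg
The positions count from the first base of the motif. A STAT site was found for S100A3 and S100A5 only, 2 of 29, against 7.66% of all listed promoters. The windows of SPRR2B, S100A8, S100A9 and S100A14 held neither string of letters. These are matches of letters, and binding data were not used here. The study mapped STAT3 and FOS binding in this cell line by ChIP-seq. It places most STAT3 sites in introns or away from annotated genes, so a promoter without a match says nothing about such sites.

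SPRR1B, a cross-bridging protein of the envelope that squamous cells make early in differentiation, was the SPRR gene with calls in the most comparisons. In siNEG cells the 3 arrays read 341, 279 and 379 units in EtOH at 4 h and 104, 136 and 143 in TAM. At 24 h they read 1862, 1920.0 and 1224 units in EtOH and 524, 599.8 and 421 in TAM. TAM arrays were below EtOH arrays without overlap at both times. In siSTAT3 cells the signals were 1493, 1758 and 1797 units in EtOH at 4 h, 767, 697 and 832 in TAM at 4 h, 4075, 3889.5 and 3666 in EtOH at 24 h and 4322 and 4255 in TAM at 24 h. Thus TAM lowered SPRR1B at 4 h in siNEG cells, by a log2 difference of -1.39 (SE 0.18, adjusted p = 0.00017), and in siSTAT3 cells, by -1.14 (SE 0.18, adjusted p = 0.00549). At 24 h the log2 difference was -1.68 (SE 0.18, adjusted p = 3.82e-06) in siNEG cells, while in siSTAT3 cells it was 0.15 (SE 0.20, adjusted p = 0.864). The interaction, defined as the TAM effect in siSTAT3 minus that in siNEG cells, measured 1.83 (SE 0.27, adjusted p = 0.000386) on the log2 scale after 24 h. At 4 h it was 0.25 (adjusted p = 0.898).

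SPRR1B was higher in siSTAT3 than in siNEG cells with or without TAM: 5.07-fold in EtOH at 4 h, 2.37-fold in EtOH at 24 h, 6.04-fold in TAM at 4 h and 8.42-fold in TAM at 24 h, the last a log2 difference of 3.07 (SE 0.20, adjusted p = 9.19e-09). It also rose with time in the vehicle, by 4.95-fold from 4 to 24 h in siNEG cells. Replicate 3 of siNEG cells in EtOH at 24 h was the lowest of its group for SPRR1A, SPRR1B, SPRR2B, SPRR3 and TGM1, and so was replicate 3 of siSTAT3 cells in EtOH at 24 h. Leaving out single arrays gave 24 h interactions of SPRR1B from 1.69 to 2.04, called each time. The fit without the siNEG array is among them.

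SPRR1A, the close relative of SPRR1B, had signals of 431, 454 and 233 units in siNEG cells in EtOH at 24 h and 158, 156 and 178 in TAM, a log2 difference of -1.13 (SE 0.28, adjusted p = 0.0113). In siSTAT3 cells at 24 h the arrays read 992, 903 and 815 units in EtOH and 1089 and 1154 in TAM, all above every siNEG array. At 4 h they read 139.8, 67.7 and 110.2 units (siNEG, EtOH), 83.0, 60.0 and 98.8 (siNEG, TAM), 318, 270.1 and 341 (siSTAT3, EtOH) and 212, 206 and 319 (siSTAT3, TAM). The signal in siSTAT3 cells was 3.04- and 2.52-fold higher in EtOH at 4 and 24 h and 6.86-fold higher in TAM at 24 h, the last a log2 difference of 2.78 (SE 0.31, adjusted p = 6.11e-06). In TAM at 4 h, where the siNEG mean was 80.6 units, the fitted log2 difference was 1.61 (SE 0.28, adjusted p = 0.0011). The interaction at 24 h was 1.45 (SE 0.41, adjusted p = 0.0647) and missed the threshold. The fall with TAM was no longer called without replicate 1 or 2 of siNEG cells in EtOH at 24 h (adjusted p up to 0.0636). The difference in EtOH at 24 h was lost without siNEG replicate 3 or siSTAT3 replicate 1 or 2 of that condition (up to 0.0824). The main probe set of SPRR1A carries the suffix that marks shared probes. The further probe set, which does not, had a log2 difference of -3.39 (SE 0.60, adjusted p = 0.000839) with TAM at 24 h in siNEG cells and an interaction of 3.93 (SE 0.90, adjusted p = 0.0169). Its mean in siNEG TAM at 24 h was 40.0 units, under 100 units, so that both sizes are uncertain. In EtOH at 24 h its siSTAT3 minus siNEG difference of 1.15 (SE 0.60, adjusted p = 0.499) was not called.

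SPRR2B, of the SPRR2 group of envelope proteins, was called in opposite directions with TAM in siNEG and siSTAT3 cells. In siNEG cells at 24 h the arrays read 225, 240.0 and 161 units in EtOH and 84.7, 132 and 103 in TAM, and in siSTAT3 cells 622, 660.4 and 456 in EtOH and 2218 and 2643 in TAM. At 4 h the siNEG arrays read 109.8, 144 and 127 in EtOH and 86.1, 143 and 113 in TAM, and the siSTAT3 arrays 623, 670.0 and 752 and 1104, 783 and 883. Every siSTAT3 array was above every siNEG array. With TAM for 24 h SPRR2B fell in siNEG cells, by a log2 difference of -0.97 (SE 0.22, adjusted p = 0.00662). It rose in siSTAT3 cells, where the value was 2.08 (SE 0.24, adjusted p = 0.000145), and the interaction of both was 3.05 (SE 0.33, adjusted p = 1.93e-05). Relative to siNEG cells the signal in siSTAT3 cells was 5.38-fold higher in EtOH at 4 h, 2.78-fold in EtOH at 24 h, 8.19-fold in TAM at 4 h and 23.1-fold in TAM at 24 h. Its only probe set carries the suffix that Affymetrix gives to probes shared with other transcripts, so part of the signal can come from other SPRR2 genes.

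SPRR3, an envelope protein typical of oral and esophageal epithelium, read 212, 185 and 101 units in siNEG cells in EtOH at 24 h and 57.9, 76.4 and 20.8 in TAM. In siSTAT3 cells at 24 h it read 474, 458 and 299 in EtOH and 1214 and 1536 in TAM. At 4 h all 12 arrays read 48.7 to 172 units. The TAM effect at 24 h was -1.81 (SE 0.42, adjusted p = 0.00769) in siNEG cells and 1.76 (SE 0.47, adjusted p = 0.0716) in siSTAT3 cells, and the interaction was 3.57 (SE 0.63, adjusted p = 0.00218). In TAM at 24 h SPRR3 was higher in siSTAT3 than in siNEG cells (adjusted p = 9.76e-07), whose mean of 51.7 units lies under 100 units, so that the size of this difference and of the interaction is uncertain. The main probe set has the suffix for shared probes, _x_at. The other probe set of SPRR3 ends in _s_at, which can also mark probes common to several transcripts, so neither is known to be specific. This other probe set had no call. Its TAM 24 h values were -1.10 (SE 0.77, adjusted p = 0.467) in siNEG cells and -0.45 (SE 0.86, adjusted p = 0.916) in siSTAT3 cells. Its group means were 122 ± 3.46, 57.3 ± 9.81, 175 ± 49.2 and 125 ± 18.8 units (SD) for siNEG EtOH, siNEG TAM, siSTAT3 EtOH and siSTAT3 TAM at 24 h. The changes of SPRR3 therefore rest on 1 of its 2 probe sets.

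**Figure D3:**
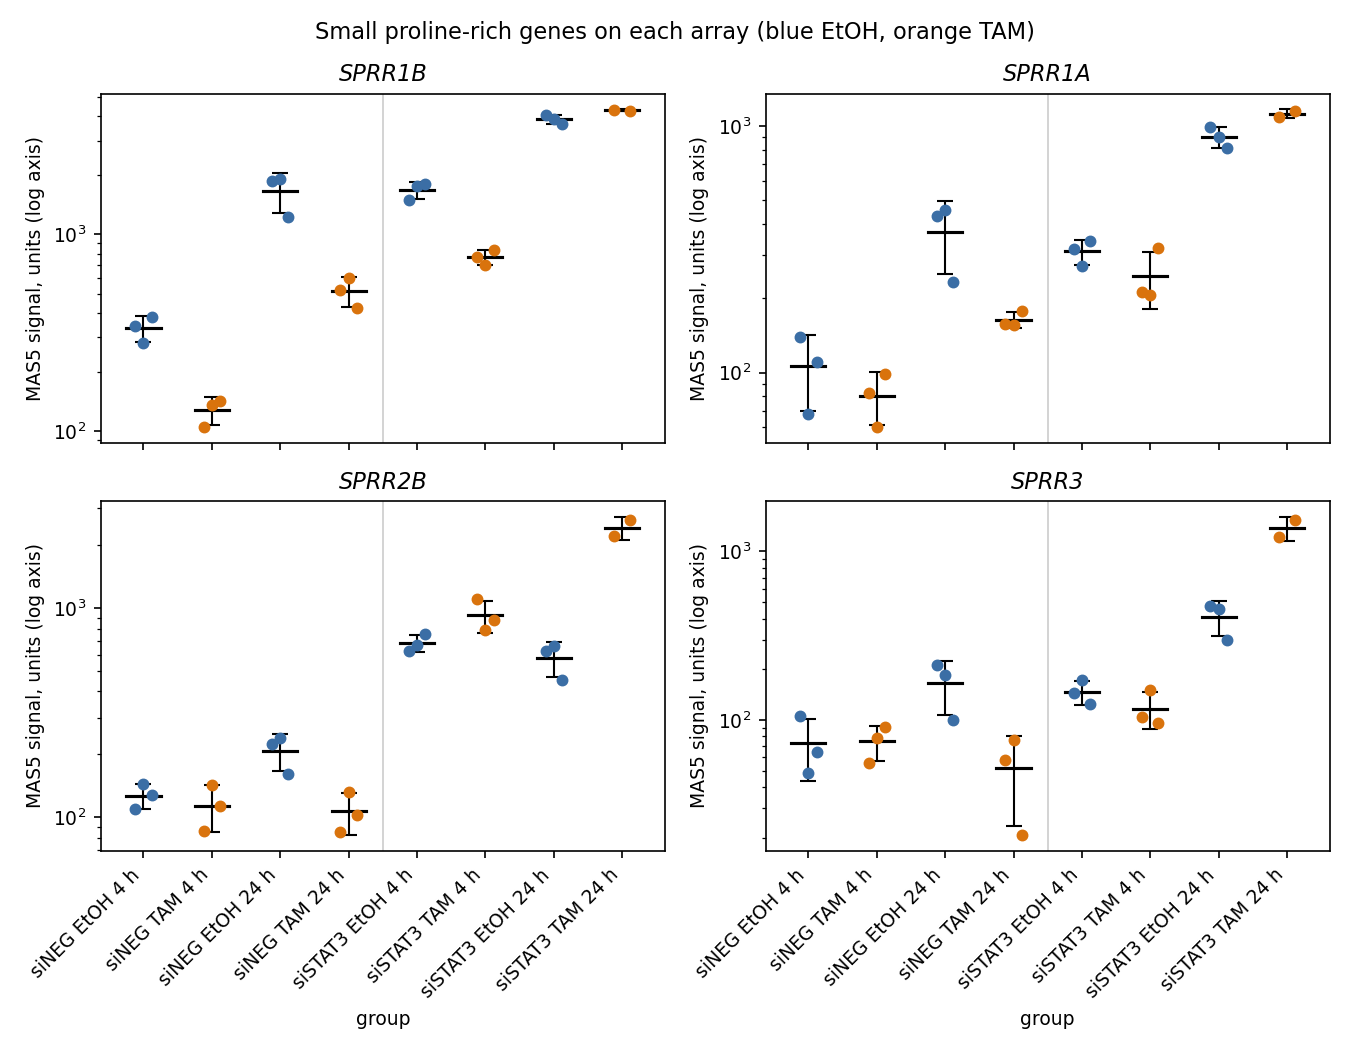
Signal of SPRR1B, SPRR1A, SPRR2B and SPRR3 on each of the 23 arrays, on a log axis in units, by group; blue points are EtOH and orange points TAM, and black lines are the group mean and its SD. In siSTAT3 cells with TAM for 24 h both arrays of SPRR2B (2218 and 2643 units) and of SPRR3 (1214 and 1536 units) lie above all arrays of the other groups.

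SPRR4 stayed near the lower limit, with group means of 75.5 to 154 units, and had no call. Among the LCE genes, which encode late envelope proteins, LCE1B fell with TAM at 24 h in siNEG cells, from 158, 149 and 165 units to 56.2, 68.2 and 81.9, a log2 difference of -1.21 (SE 0.25, adjusted p = 0.00305). In siSTAT3 cells its TAM effect was 0.00 (SE 0.28, adjusted p = 0.998), and the interaction of 1.22 (SE 0.37, adjusted p = 0.0886) missed the threshold. LCE1E and LCE3D had group means of 70.1 to 121 units over both genes and no call in any of the 11 comparisons. Involucrin, the scaffold on which the envelope is assembled, was below 100 units in every group. Its 24 h arrays with TAM read 22.6, 33.9 and 41.1 units in siNEG cells and 77.5 and 97.4 in siSTAT3 cells, and the difference of 1.46 (SE 0.31, adjusted p = 0.0037) was called. The fused-type S100 genes had no call, with means of at most 38.9 units for FLG, 31.6 for TCHH and 37.5 for CRNN.

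TGM1 had siNEG signals of 3343, 3178 and 2072 units in EtOH at 24 h and 1093, 1170.4 and 854 in TAM, with no overlap. In siSTAT3 cells the arrays read 2153, 2251 and 2037 in EtOH and 1802 and 2063 in TAM, which overlapped. TAM for 24 h therefore lowered TGM1 2.72-fold in siNEG cells, a log2 difference of -1.44 (SE 0.17, adjusted p = 1.53e-05). The value in siSTAT3 cells was -0.15 (SE 0.19, adjusted p = 0.85), and the interaction was 1.29 (SE 0.26, adjusted p = 0.00648). At 4 h the arrays read 1876, 1731 and 2226 (siNEG, EtOH), 1702, 1732 and 1651 (siNEG, TAM), 1262, 1291 and 1143 (siSTAT3, EtOH) and 1319.5, 1245 and 942 units (siSTAT3, TAM). The direction of the knockdown difference turned with the condition: -0.65 (SE 0.17, adjusted p = 0.0493) in EtOH at 4 h and 0.90 (SE 0.19, adjusted p = 0.00386) in TAM at 24 h. The first was lost when any 1 of its 6 arrays was left out (adjusted p 0.0692 to 0.189), and the second without siSTAT3 TAM 24 h replicate 3 (0.0646).

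**Figure D4:**
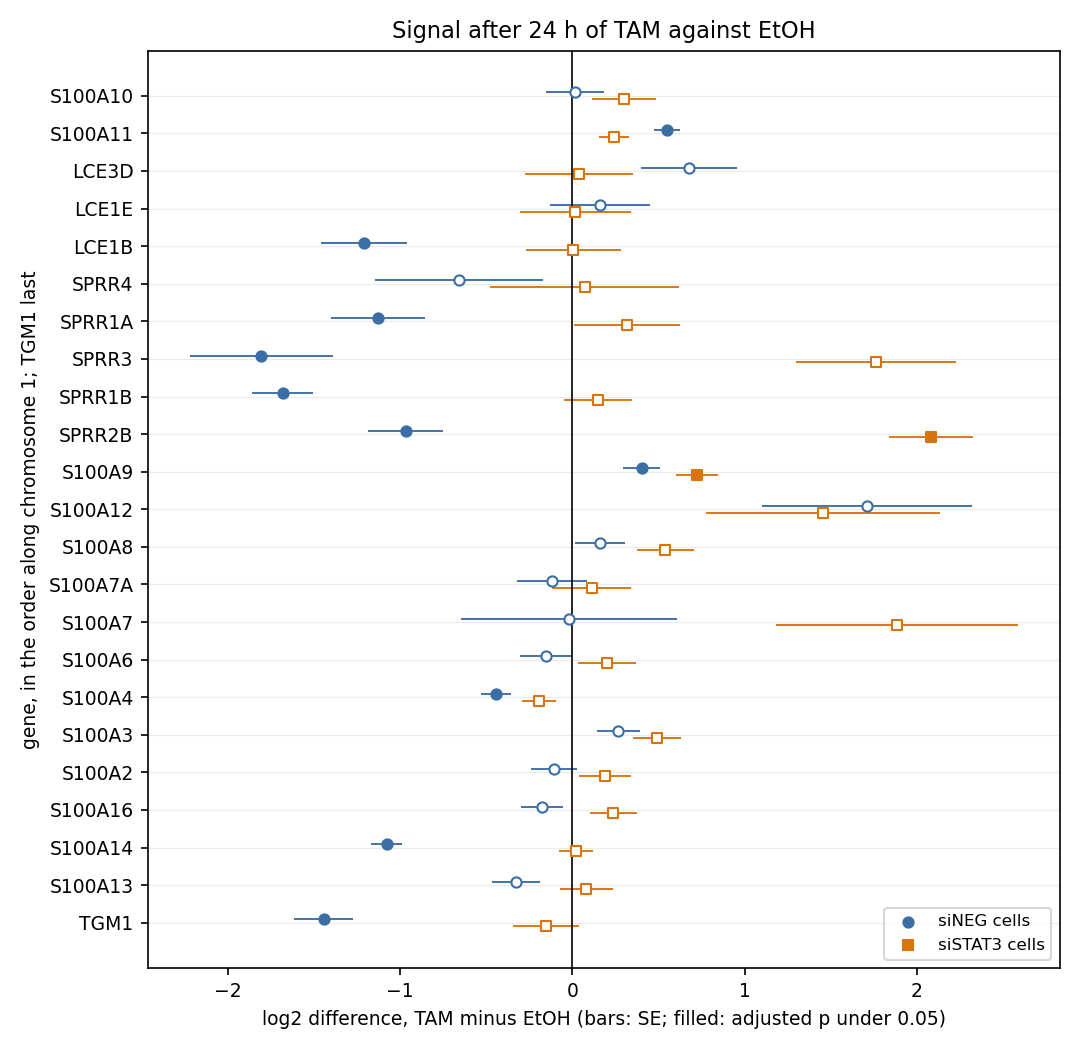
Log2 difference between TAM and EtOH at 24 h in siNEG cells (blue circles) and siSTAT3 cells (orange squares) for the 23 genes that reached 100 units, in chromosome order with TGM1 last; bars are standard errors and filled points have an adjusted p under 0.05. SPRR1A, SPRR1B, SPRR2B, SPRR3, LCE1B, S100A14 and TGM1 lie below -0.9 in siNEG cells, and none of them lies below -0.2 in siSTAT3 cells.

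Over all members, the interaction at 24 h was called for 5, all with a higher TAM effect in siSTAT3 than in siNEG cells: SPRR1B, SPRR2B, SPRR3, TGM1 and S100A14. Of all genes 3.42% were called in that direction and 2.49% in the other, and the median interaction was 0.37 over the members and 0.03 over all genes. The interaction at 4 h was called for 0 of the 32 by limma, where 0.192% of all genes were called higher and 0.329% lower. At an unadjusted p under 0.05 it included 2 members, LCE1B (0.77) and S100A9 (-0.53). The summed signal of the epithelial markers moved in the same conditions: it was 33815 to 37901 units in siNEG cells in EtOH at 24 h, 23551 to 26558 in TAM, 40722 to 42942 in siSTAT3 cells in EtOH and 42602 to 49729 in TAM. The summed signal of the basal markers did not move in this way. At 24 h it was 40513 to 44407 units in siNEG cells in EtOH and 41964 to 44720 in TAM, which overlapped. In siSTAT3 cells it was 33406 to 36101 in EtOH and 36528 to 43919 in TAM. The part of either sum in these results was not tested.

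S100A9, a subunit of calprotectin, had siNEG signals of 13142, 11856 and 13174 units in EtOH at 4 h and 18782, 21053 and 18665 in TAM, and 20408, 20586 and 20946 in EtOH at 24 h and 25771, 28832 and 27329.9 in TAM. In siSTAT3 cells they were 4598, 4363 and 4698 and 5297, 5499.5 and 3835 at 4 h and 7653, 7029.9 and 7150.1 and 11831 and 12205 at 24 h, for EtOH and TAM. Within each treatment and time the siSTAT3 arrays were below the siNEG arrays with no overlap. The fold differences were 2.79 in EtOH at 4 h, 2.84 in EtOH at 24 h, 4.04 in TAM at 4 h and 2.27 in TAM at 24 h, lower in siSTAT3 cells each time. The log2 value was most negative in TAM at 4 h, -2.02 (SE 0.11, adjusted p = 4.43e-09). TAM raised S100A9 in siNEG cells at 4 h, by 0.62 (SE 0.11, adjusted p = 0.00403), and at 24 h, by 0.40 (SE 0.11, adjusted p = 0.0229). In siSTAT3 cells it raised S100A9 at 24 h, by 0.72 (SE 0.12, adjusted p = 0.00371), and at 4 h the value was 0.08 (SE 0.11, adjusted p = 0.909). The 24 h rise in siNEG cells was lost when any of 5 of its 6 arrays was left out, all but siNEG TAM replicate 1 (adjusted p 0.0516 to 0.0897), and that in siSTAT3 cells without TAM replicate 3 (0.0606). With TAM at 24 h the siNEG arrays came close to the brightest probe sets, 28902 to 47355 units on an array. The siNEG rise and the knockdown difference in TAM at 24 h may therefore not show in full.

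S100A8, the other subunit of calprotectin, read 19729, 18786 and 20751 units in siNEG cells in EtOH at 4 h, 26195, 29435 and 25937 in TAM at 4 h, 29683, 31586 and 30034 in EtOH at 24 h and 33030.0, 35473 and 33543 in TAM at 24 h. In siSTAT3 cells it read 8255, 7747 and 9321, 9753, 11132 and 6316, 15135, 15165 and 15828 and 21138 and 23631 units in the same order. As for S100A9, siSTAT3 arrays were lower than siNEG arrays in every condition. The log2 differences were -1.23 (SE 0.15, adjusted p = 9.57e-05) in EtOH at 4 h, -0.98 (SE 0.15, adjusted p = 0.0011) in EtOH at 24 h, -1.62 (SE 0.15, adjusted p = 1.59e-06) in TAM at 4 h and -0.61 (SE 0.16, adjusted p = 0.0213) in TAM at 24 h. The last was lost without siNEG TAM replicate 2 or either siSTAT3 array (adjusted p up to 0.153). Neither TAM effect of S100A8 in siNEG cells passed the test. The 4 h value was 0.46 (SE 0.15, adjusted p = 0.143) and the 24 h value 0.16 (SE 0.15, adjusted p = 0.613). The 24 h signals of siNEG cells were close to those of the brightest probe sets, 28902 to 47355 units on an array, so that a rise with TAM or the full knockdown difference at 24 h may not show on this probe set.

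The second, much dimmer probe set of S100A8 gave another picture with TAM at 24 h. Its group means were 259 ± 22.9 units (SD) in siNEG EtOH and 50.8 ± 14 in siNEG TAM, a log2 difference of -2.39 (SE 0.30, adjusted p = 3.2e-05), and 195 ± 51.6 and 227 ± 37.9 in siSTAT3 cells. Its siSTAT3 minus siNEG difference was 2.19 (SE 0.34, adjusted p = 0.000226) in TAM at 24 h, opposite in sign to that of the main probe set. Its interaction at 24 h was 2.64 (SE 0.46, adjusted p = 0.00194). The siNEG TAM mean lies under 100 units, so that these sizes are uncertain. In EtOH at 24 h its siSTAT3 minus siNEG difference of -0.45 (SE 0.30, adjusted p = 0.655) was not called. In EtOH and TAM at 4 h both probe sets were lower in siSTAT3 cells. Which of them follows S100A8 RNA better was not tested, and the direction at 24 h in TAM rests on this choice.

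Since calprotectin genes are also markers of myeloid cells, the myeloid markers PTPRC, CD14, ITGAM, LYZ, TYROBP, CSF1R and FCER1G were read beside them. Of the 7, 4 were below 100 units in every group: PTPRC (group means 29.2 to 43.5 units), LYZ (10.3 to 26.8 units), TYROBP and CSF1R. The others were CD14, ITGAM (64.5 to 107 units) and FCER1G (72.5 to 148 units). The summed signal of the 7 was 931 to 1260 units on siNEG arrays and 640 to 986 on siSTAT3 arrays, of which CD14 alone had group means of 393 to 845 units. The part of this shift in the S100A8 and S100A9 values was not tested. Of 5 fibroblast markers, COL1A2, COL3A1 and PDGFRB were below 100 units in every group, while COL1A1 (288 to 937 units as group means) and DCN were above it. The sum of the 5 was 2806 to 7778 units on siNEG arrays and 2013 to 3075 on siSTAT3 arrays, with DCN (1571 to 6858 units as group means) as its main source. Its part in the results was not tested.

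**Figure D5:**
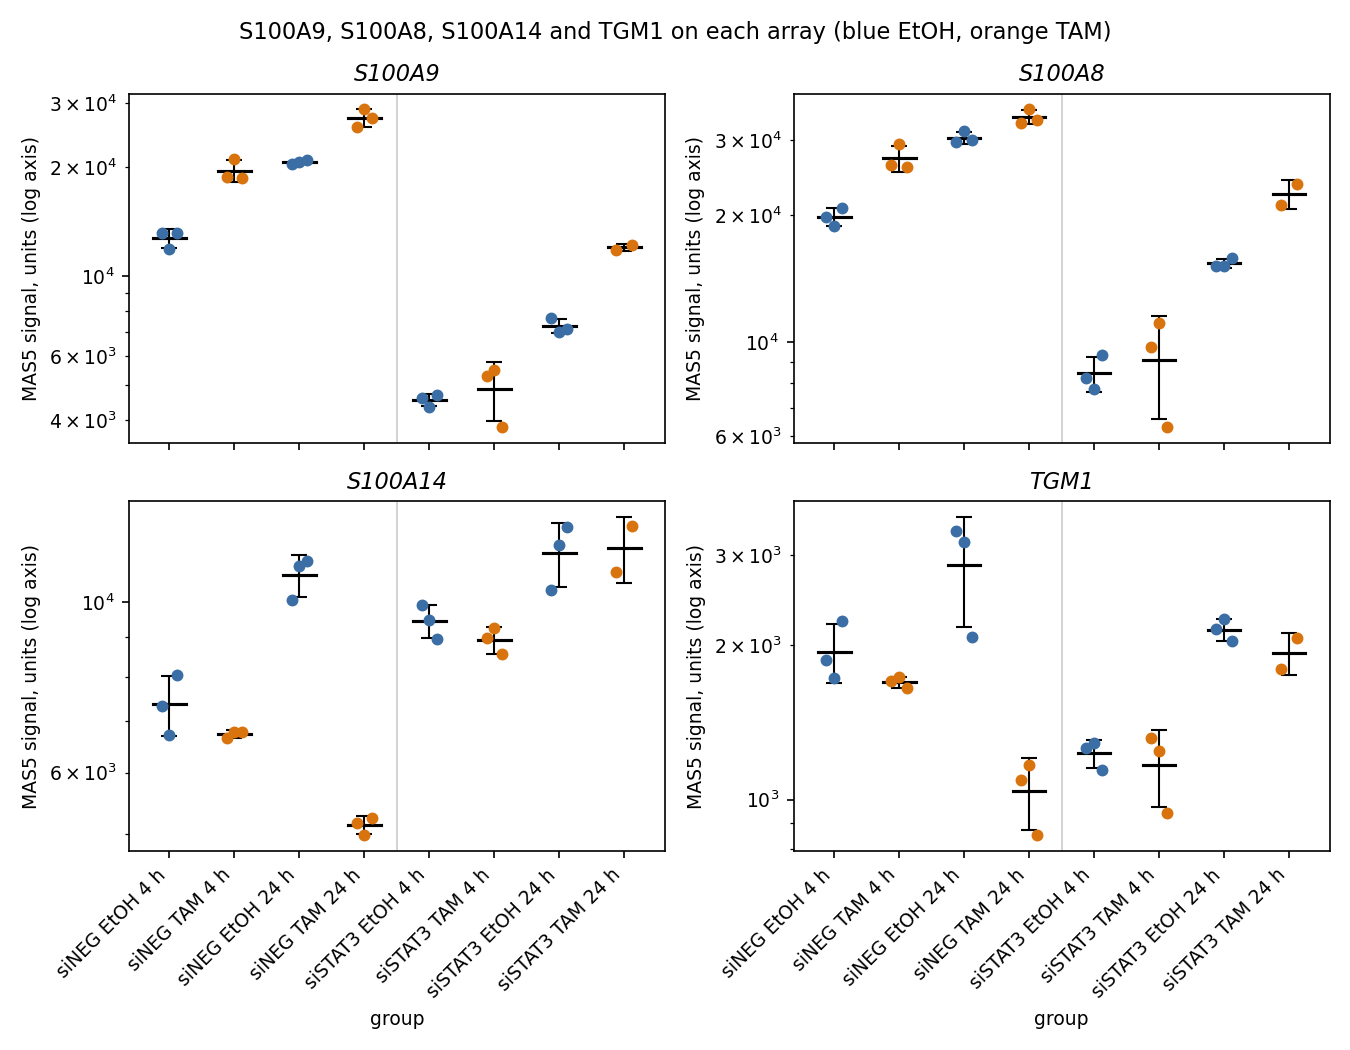
Signal of S100A9, S100A8, S100A14 and TGM1 on each of the 23 arrays, on a log axis in units, by group; blue points are EtOH and orange points TAM, and black lines are the group mean and its SD. The siSTAT3 arrays of S100A9 and S100A8 are below the siNEG arrays of the same treatment and time, and S100A14 and TGM1 are lowest in siNEG cells with TAM for 24 h, at 4982 to 5244 and 854 to 1170 units.

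S100A12 and S100A7, further S100A genes linked to inflamed skin, were dim and more variable. S100A12 arrays read 81.6, 54.3 and 56.0 units in siNEG EtOH at 24 h and 222, 218 and 180.1 in siNEG TAM. These groups did not overlap, but the log2 difference of 1.71 (SE 0.61, adjusted p = 0.0876) missed the threshold. With TAM at 24 h the siSTAT3 arrays read 67.6 and 41.8 units, a difference of -1.95 (SE 0.68, adjusted p = 0.0776) from siNEG cells. S100A7, psoriasin, read 8.21, 9.61 and 11.3 units in siNEG EtOH at 4 h and 124, 181 and 142 at 24 h, and was higher at 24 h (adjusted p = 0.0006). The size of this rise is uncertain, since the 4 h signals lay far under 100 units. In siSTAT3 EtOH at 24 h its arrays were 95.4, 17.0 and 15.7 units, and the difference from siNEG cells was -2.32 (SE 0.63, adjusted p = 0.0792). S100A7A had group means of 105 to 134 units and no call.

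S100A14, a membrane-associated S100 protein of epithelia, fell with TAM at 24 h in siNEG cells, as TGM1 and 4 SPRR genes did. Its siNEG arrays read 10062, 11147 and 11302 units in EtOH at 24 h and 5159, 4982 and 5244 in TAM, a fall of 2.11-fold with a log2 difference of -1.08 (SE 0.09, adjusted p = 2.51e-07). Those of siSTAT3 cells read 10353, 11858 and 12518 in EtOH and 10937 and 12555 in TAM, which overlapped, with a TAM effect of 0.02 (SE 0.10, adjusted p = 0.972). The interaction of 1.10 (SE 0.13, adjusted p = 7.52e-05) had the smallest SE among the called members. At 4 h the arrays read 7315, 6719.8 and 8045 (siNEG, EtOH), 6651, 6778 and 6783 (siNEG, TAM), 9903, 9473 and 8964 (siSTAT3, EtOH) and 8984, 9260.4 and 8547 units (siSTAT3, TAM). In TAM at 24 h it was 2.29-fold higher in siSTAT3 than in siNEG cells, and smaller differences were called at 4 h, 0.41 (SE 0.09, adjusted p = 0.00912) in TAM and 0.36 (SE 0.09, adjusted p = 0.0348) in EtOH. The EtOH difference at 4 h was lost without any of 5 of its 6 arrays, all but siNEG replicate 3 (adjusted p 0.0536 to 0.163).

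S100A11, which binds annexin A1 and is cross-linked into the envelope, rose with TAM at 24 h in siNEG cells from 12289.8, 12365 and 11777 units to 17553, 18517 and 17292, a log2 difference of 0.55 (SE 0.08, adjusted p = 7.51e-05). In siSTAT3 cells it went from 12939, 13211 and 13603 to 14977 and 16387, a value of 0.24 (SE 0.08, adjusted p = 0.211), and the interaction was -0.31 (SE 0.11, adjusted p = 0.185). S100A4, known for its part in cell motility, fell with TAM at 24 h in siNEG cells from 2872, 2787 and 2809.7 to 2006, 1961 and 2277 units, a log2 difference of -0.44 (SE 0.09, adjusted p = 0.00221), and its interaction was 0.25 (SE 0.13, adjusted p = 0.418). S100A3 had group means of 609.8 to 954 units and no call with TAM or the knockdown.

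The 5 genes S100A2, S100A6, S100A10, S100A13 and S100A16 were bright and their main probe sets had no call. Group means ran from 30338 to 35156 units for S100A2, 24676 to 30655 for S100A6, 20369 to 27833 for S100A10, 14028 to 19635 for S100A16 and 4605 to 6150 for S100A13. Over the 11 comparisons their log2 differences lay between -0.33 and 0.42 with standard errors of 0.12 to 0.25, and adjusted p ran from 0.0820 to 0.999. The brightest probe set of an array read 28902 to 47355 units, and only 4 probe sets had a higher median than S100A2. S100A2, S100A6 and S100A10 thus lay near the top of the scale, where a change in RNA may not show in full. The dimmer second probe sets of S100A10 and S100A6 were called in several comparisons. With TAM at 24 h in siNEG cells they rose, by 1.24 (SE 0.13, adjusted p = 5.09e-06) and 0.76 (SE 0.12, adjusted p = 0.000215). That of S100A10 was also higher in siSTAT3 cells at 4 h, by 0.64 in EtOH and 0.58 in TAM (adjusted p = 0.0125 and 0.0129), had a 24 h interaction of -0.83 (adjusted p = 0.0258) and fell with time by a log2 difference of -0.80 (adjusted p = 0.000873). That of S100A6 was higher in siSTAT3 cells in TAM at 4 h, by 0.53 (adjusted p = 0.0091), and lower at 24 h, by -0.59 (adjusted p = 0.00502).

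Members also differed between 4 and 24 h in the vehicle. Time since siRNA transfection differed too, and the paper describes the 24 h EtOH cells as becoming confluent, so these cannot be told apart. From 4 to 24 h in EtOH in siNEG cells 7 members rose and 1 fell, where 6.82% of all genes rose and 5.52% fell: SPRR1A, SPRR1B, S100A4, S100A7, S100A8, S100A9 and S100A14 rose and S100A3 fell. SPRR1A rose by 1.82 (SE 0.28, adjusted p = 0.000369) and S100A9 by 0.70 (SE 0.11, adjusted p = 0.000497). With the stricter limits of the study 5 members were called (3.87% of all genes). Without siNEG EtOH 4 h replicate 2 the members called were 5, and the calls of S100A3, S100A4 and S100A8, with log2 values of -0.42, 0.30 and 0.62, each depended on at least 1 array. For S100A8 this was that replicate (adjusted p just over 0.05), for S100A3 all but siNEG EtOH 24 h replicate 3 (up to 0.215) and for S100A4 all but siNEG EtOH 4 h replicate 3 (up to 0.153).

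Genes outside the 32 that act in the same program were read from lists of related genes. Of 27 other genes of terminal differentiation, 1 rose and 6 fell with TAM at 24 h in siNEG cells, where 6.06% and 9.31% of all genes did. In siSTAT3 cells with TAM at 24 h, 5 were higher and 1 lower than in siNEG cells, where 9.72% and 6.77% of all genes were. Several of these genes were below 100 units in every group, among them LORICRIN, KRT1, KRT2, CASP14, DSG1, DSC1, CDSN, FLG2, RPTN, TGM3 and KRTDAP. Periplakin (PPL), a plakin of the envelope, fell from 2023 ± 343 to 482 ± 65.2 units (SD, n = 3) in siNEG cells, with an interaction of 1.67 (SE 0.18, adjusted p = 2.05e-05). ABCA12, a lipid transporter of the barrier, had an interaction of 0.92 (SE 0.15, adjusted p = 0.00151). CST6, a cystatin that restrains proteases of the envelope, was higher in siSTAT3 cells in all 4 conditions, 1.86- to 2.28-fold. Group means of ALOXE3 at 24 h went the other way. They were 33.7 ± 8.75 units (SD) in siNEG EtOH, 113 ± 17.6 in siNEG TAM and 30.8 ± 15.6 (n = 2) in siSTAT3 TAM.

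Of 10 transcription factors that regulate terminal differentiation, 2 rose and 4 fell with TAM at 24 h in siNEG cells (6.06% and 9.31% of all genes). The 24 h interaction was called higher for 3 and lower for 1 (3.42% and 2.49% of all genes). GRHL3, a grainyhead factor of the barrier, fell from 688 ± 156 to 99.4 ± 15.4 units (SD, n = 3) in siNEG cells and read 880.4 ± 27.7 (n = 2) in siSTAT3 cells with TAM, an interaction of 2.82 (SE 0.23, adjusted p = 1.38e-06). KLF4, a factor needed for the skin barrier, fell with TAM at 24 h in siNEG cells by a log2 difference of -1.59 (SE 0.11, adjusted p = 3.66e-08). It had an interaction of 1.89 (SE 0.17, adjusted p = 2.76e-06) and was higher in siSTAT3 cells in all 4 conditions, 2.11- to 7.83-fold. OVOL1 likewise had an interaction of 2.02 (SE 0.28, adjusted p = 0.000286). PRDM1 went the other way: it rose with TAM at 24 h in siNEG cells by 3.06 (SE 0.18, adjusted p = 3.99e-09), and its interaction was -1.94 (SE 0.27, adjusted p = 0.000279).

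Of 9 partners and receptors of S100 proteins, 1 rose with TAM at 24 h in siNEG cells (6.06% of all genes), ANXA1, by 0.30 (SE 0.09, adjusted p = 0.0381), and 1 had a called interaction at 24 h (3.42% of all genes higher), ANXA6, at 0.82 (SE 0.19, adjusted p = 0.018). Single calls among 9 genes say nothing about the list. Of 4 S100 genes outside the chromosome 1 cluster, S100P alone was called, higher in siSTAT3 cells by 0.94 (SE 0.14, adjusted p = 0.000909) in EtOH at 24 h, 0.54 (SE 0.14, adjusted p = 0.0231) in TAM at 4 h and 1.18 (SE 0.15, adjusted p = 3.58e-05) in TAM at 24 h, and higher at 24 than at 4 h in siNEG EtOH by 1.32 (SE 0.14, adjusted p = 9.51e-06).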

How the data were processed

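RNA of 23 samples in 8 groups was hybridized by the authors to Affymetrix Human Genome U133 Plus 2.0 arrays. They corrected background, scaled the arrays and summarised the probes with MAS5, and deposited 1 intensity per probe set and array on a linear scale. The version and the scaling target were not given in the sources used here. A genome build does not enter these values.

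Intensities were log2 transformed with nothing added, and limma 3.58.1 estimated 1 mean for each group from the 23 arrays together in R 4.3.3 (15 residual and 1.271 prior degrees of freedom). P-values were adjusted by Benjamini-Hochberg over all 54675 probe sets of a comparison. The script was tested on simulated data. The platform annotation gives 41097 probe sets 1 symbol, 1801 several and 11777 none, and only the first were used. A gene with several probe sets was represented by the one with the highest mean log2 signal. Genes reaching 100 units in a group are given with values, the others by their range, except IVL, whose values are given because it was called. Genes outside the 32 that are given with test results are some, not all, of those called among lists of related genes. The members and lists were chosen with earlier results of these data known. Alternatives were a minimum mean of 50 units, 16 units added before the log, quantile normalization, the mean of all probe sets of a gene, the limits of the study (p under 1e-04 and an absolute log2 difference over 0.5), the replicate number as a block and each array left out. A preference for probe sets that do not end in _x_at was added after seeing the data. Precision is limited by the number of arrays. No 2 arrays held identical values.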

Additional observations from a re-analysis of the deposited data

Results flagged for a closer look

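The effect of TAM at 24 h differed between siSTAT3 and siNEG cells, by the interaction in the limma fit, for 5 genes. The log2 interaction was 3.05 for SPRR2B (adjusted p = 1.93e-05), where TAM raised the signal in siSTAT3 cells and lowered it in siNEG cells. For SPRR3 it was 3.57 (adjusted p = 0.00218), on 1 of 2 probe sets and with a siNEG TAM mean of 51.7 units, under 100 units. For SPRR1B it was 1.83 (adjusted p = 0.000386). For TGM1 it was 1.29 (adjusted p = 0.00648), and for S100A14 1.10 (adjusted p = 7.52e-05). In siNEG cells all 3 TAM arrays at 24 h were below all 3 EtOH arrays for each of the 5. The siSTAT3 TAM group held 2 arrays.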

How the results depend on the processing

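Among members that reached 100 units, 54 values were called, and 16 units added before the log kept all 54. The counts of called members that moved by more than 1.5 times were 4 with the limits of the study against 10 for TAM at 24 h in siNEG cells, 5 against 8 for time in siNEG EtOH, and 4 with the filter on low signals against 2 for TAM at 24 h in siSTAT3 cells. With the mean of all probe sets of a gene, 3 values changed sign: S100A6 with TAM at 24 h in siNEG cells (0.30), S100A8 in the same comparison (-1.11) and S100A8 in siSTAT3 against siNEG cells in TAM at 24 h (0.79). Their other probe sets, given above, differ from the main ones. The same setting ended 3 calls, among them the 24 h interaction of SPRR3 (2.11, adjusted p = 0.0927), and quantile normalization ended those of TGM1 in EtOH at 4 h and of S100A8 with time (adjusted p = 0.0561 and 0.0750). Preferring probe sets that do not end in _x_at ended 4 calls, of which 3 were the calls of SPRR3 and 1 that of SPRR1A in EtOH at 24 h. This preference still accepts the suffix _s_at. It moved SPRR3 to such a probe set and left S100A8 on its main one, which also ends in _s_at, so it does not test shared probes in general.

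Leaving out 1 array at a time, 43 of the 54 calls held without every single array, 11 were lost without at least 1, and 0 changed direction. Called members then numbered 2 to 2 (TAM 4 h) and 8 to 10 (TAM 24 h) in siNEG cells, and 1 to 1 and 1 to 3 in siSTAT3 cells, the lowest without siSTAT3 TAM 24 h replicate 3. For siSTAT3 against siNEG they numbered 5 to 6 and 4 to 5 (EtOH, 4 and 24 h) and 6 to 6 and 6 to 10 (TAM, 4 and 24 h). They were 0 to 0 and 5 to 6 for the interactions at 4 and 24 h, and 5 to 9 for time.

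Neither the labels nor every pair's correlation tie the replicate numbers to a shared batch, so the main comparisons carry no block. Deviations from the group mean correlated at a median of 0.0197 over 77 same-numbered pairs and -0.0111 over the others, 6 pairs were over 0.1, and 16 of 23 arrays matched best an array of their own number, a hint from the data that arrays of one number share something. With the replicate number as a block, called members numbered 6 for time, where S100A3 and S100A4 were lost (adjusted p 0.0535 and 0.0504), and the other 10 comparisons kept their counts. Dim genes such as S100A7 and S100A12 are limited by their spread between arrays.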
